A study of Mus musculus with 6 samples.

Results

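The mitochondrial ribosomal protein genes are the nuclear genes whose mouse symbols are Mrpl or Mrps followed by a number. They were taken by symbol, and each was represented by its transcript row of highest mean over all arrays. All 78 such genes of the RefSeq mouse gene table had a row, of 20263 named genes in all. By symbol 49 are Mrpl genes, for the large subunit, and 29 are Mrps genes, for the small subunit. A further 6 symbols of this kind with a pseudogene suffix had 0 rows.

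The values come from neural stem cells of CD-1 albino mouse embryos at E14.5, grown as neurospheres (floating colonies) under conditions that keep them dividing. Both groups were nucleofected, that is, transfected by an electrical pulse: 3 cultures received a miR-128 mimic and 3 received miR-Control. RNA was taken after 72 h, and each of the 6 RNAs was run on its own exon array. The submitters call the replicates biological. No dose of the mimic and no separate source of embryos per replicate is given in the labels. The p-values set each difference against the spread among these samples, and whether that spread covers separate embryos is not known. By the series text miR-128 is not normally expressed in these cells.

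Mitochondria carry their own ribosome, the mitoribosome, which makes the few respiratory chain proteins that mitochondrial DNA encodes. Its RNAs come from mitochondrial DNA, but its proteins are encoded in the nucleus, translated in the cytosol and imported. Many of them have a bacterial counterpart, and others were added during the evolution of mitochondria. The assignments to subunits and the roles given below come from human and pig mitoribosome structures and from human genetics unless a mouse role is named. MicroRNAs pair through their seed with target mRNAs and lower their stability or translation.

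The RefSeq mature mouse sequence of miR-128-3p (GRCm38.p6, produced from genes on chromosomes 1 and 9) is shown because it is the annotated strand that shares the mimic's name, with its seed, bases 2 to 8, in capitals. The labels do not state the strand or sequence of the mimic.
mmu-miR-128-3p: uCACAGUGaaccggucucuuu

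Most mitoribosomal protein genes were slightly lower with miR-128, in both subunits. Of the 78 genes 66 had a lower and 12 a higher mean with miR-128, and the median log2 fold change (miR-128 over miR-Control) was -0.13, with quartiles of -0.22 and -0.05. Over all named genes 43.8% were lower, with a median of 0.02. Of the 78 genes 74 lay above the median level of all rows, and among named genes above that level 49% were lower, with a median of 0.00348. The genes are not independent of each other, so this excess of lower values is a description and was not tested.

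No single gene passed the test. In limma, with Benjamini-Hochberg adjustment over all 32025 rows, 0 of the 78 genes and 0 rows in all (0%) had an adjusted p under 0.05, and the lowest adjusted p among the 78 was 0.362. At an unadjusted p under 0.05 there were 8 lower genes (10.3% of the 78), beside 3.39% of all named genes and 5.15% of those above the median level. On the higher side there was 1, beside 3.74% of all named genes. The groups were separate, with every miR-128 array under every control, in 9 of the 78 genes, beside 5.27% of all named genes and 7.61% of those above the median level, and with miR-128 above in 2, beside 6.87%. The median standard error of a member's log2 fold change was 0.13, and the 95% interval included 0 in 69 genes.

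**Figure D1:**
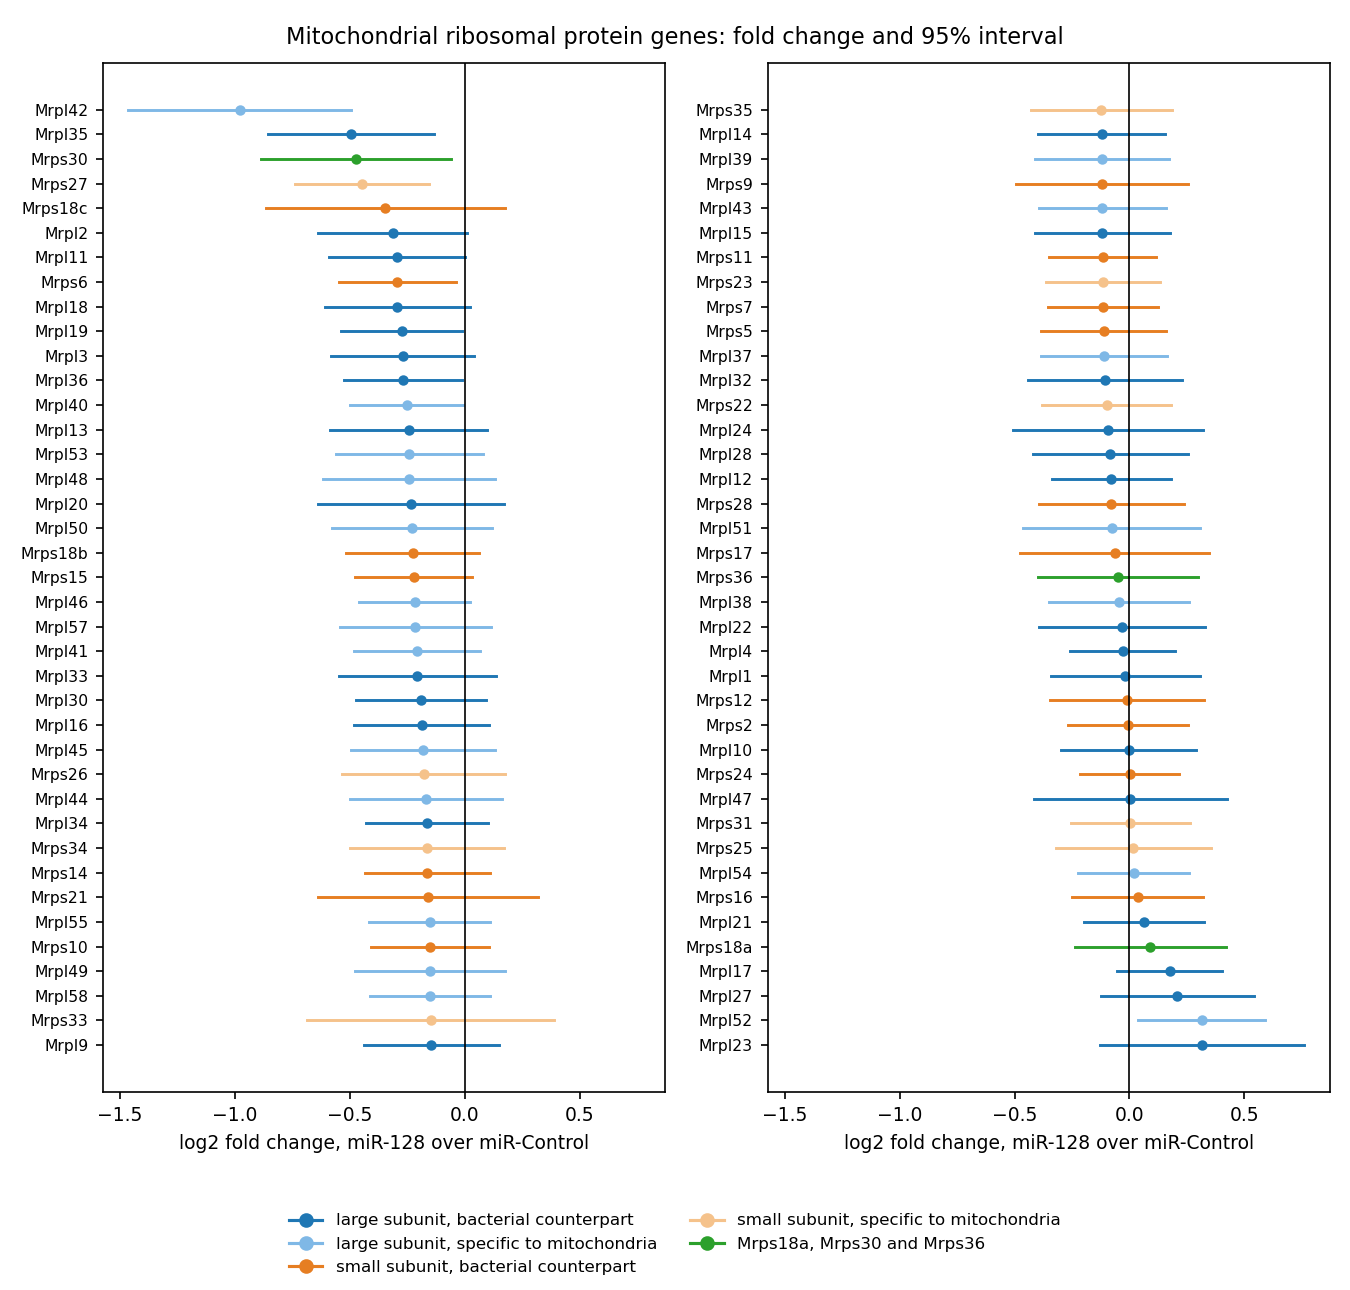
Log2 fold change (x axis, miR-128 over miR-Control, points) with its 95% interval from limma (lines) for each of the 78 mitochondrial ribosomal protein genes, ordered from lowest to highest and coloured by subunit and origin. Of the points 66 lie left of 0, with Mrpl42 farthest at -0.98, and most intervals include 0.

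The control arrays differed among themselves. Relative to each gene's mean over the controls, the median of the 78 genes was 0.06, 0.09 and -0.17 (miR-Control) and -0.20, -0.06 and -0.16 (miR-128), where values, here and below, are given in the order of replicates 1, 2 and 3. The third control was thus as low as the mimic arrays, and the other 2 controls lay above all of them. It was the lowest of the 3 controls in 58 of the 78 genes (74.4%), beside 36.6% of all named genes and 56.1% of those above the median level. It was at or below the highest miR-128 array in 62 of the 78 genes, beside 66.2% of all named genes and 78.5% of those above the median level, so this count is near the background. The same array stood apart over the whole table, at 42.7 on a first principal component that carried 35.3% of the variance, with the other 5 arrays between -17.8 and -1.48.

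Without miR-Control replicate 3 the median of the 78 genes moved from -0.13 to -0.21, and 70 genes were lower, beside 41% of all named genes. Then 24 genes were lower at an unadjusted p under 0.05, beside 6.72% of all named genes and 11.1% of those above the median level, and 0 were higher, beside 5.81%. The number with every miR-128 array below the controls went from 9 to 42, beside 13.6% of all named genes and 21.7% of those above the median level, and 2 genes had every miR-128 array above them, beside 21.2%. Still 0 genes passed an adjusted p of 0.05. Leaving out one of the other arrays gave fewer than the 8 lower genes at an unadjusted p under 0.05 in 4 cases: 2 genes (2.56% of the 78) for miR-128 replicate 1, 3 (3.85%) for miR-Control replicate 2, 4 (5.13%) for miR-128 replicate 3 and 5 (6.41%) for miR-Control replicate 1. The shares of genes above the median level in the same fits were 2.43%, 3.27%, 4.05% and 4.18%, so the members lay close to the background there. The count of 9 with separate groups was 24 (30.8%) without miR-128 replicate 2, beside 9.67% of all named genes and 13.6% of those above the median level. How far the state of miR-Control replicate 3 sets the small difference with all 6 arrays was not tested beyond these values.

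**Figure D2:**
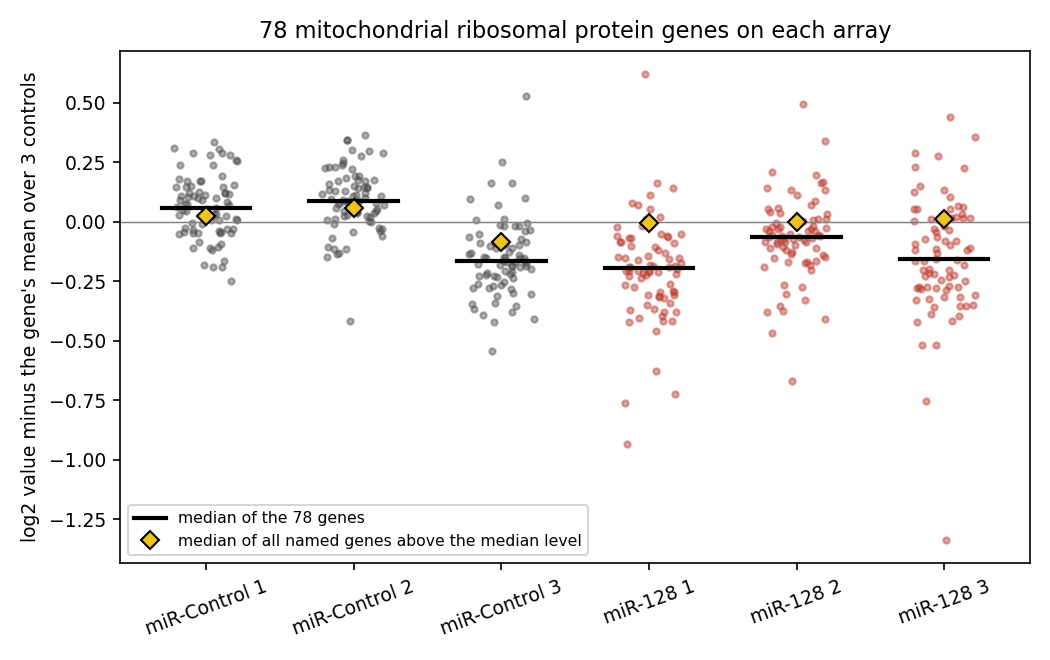
Each point is 1 of the 78 genes on 1 array, as its log2 value minus the gene's mean over the 3 controls (y axis), with the median of the 78 genes as a bar and the median of all named genes above the median level as a diamond. The bars of miR-Control 1 and 2 lie above 0 at 0.06 and 0.09, and those of miR-Control 3 and the miR-128 arrays lie below 0, between -0.06 and -0.20.

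Cell type markers gave some context. The 8 neural stem cell markers had array means of 10.58 to 10.68 in controls and 10.57 to 10.64 with miR-128, with single genes differing in either direction. Fabp7 was at -0.30 with separate groups, and Nes at -0.30 and Hes5 at 0.33 had overlapping groups. Gene means of this list ran from 5.81, for the surface marker Prom1, to 13.6, for the intermediate filament gene Vim. The 5 oligodendrocyte markers had higher array means with miR-128, at 8.31 to 8.40 against 8.01 to 8.16 in controls. The 4 microglial markers also had higher array means with miR-128, at 6.49 to 6.57 against 6.41 to 6.46, with overlapping groups in each gene. Their gene means, 5.74 to 7.31, lay under the median of all rows, 7.46, as did those of the oligodendrocyte markers Mbp and Mog. Of all named genes 43.8% were lower with miR-128, so most rose slightly. The array means overlapped between groups for the 6 neuronal markers (7.83 to 7.83 in controls, 7.83 to 7.93 with miR-128), the 4 astrocyte markers (7.62 to 7.75 and 7.69 to 7.75) and the 4 vascular markers (6.37 to 6.68 and 6.31 to 6.55). Of these markers 0 had an adjusted p under 0.05, while those with an unadjusted p under 0.05 included Mbp (higher) and Fabp7 and Gja1 (lower), and signal over background is unknown here. In a bulk RNA sample fewer cells of a type and less RNA per cell cannot be told apart, and the part of cell composition in the mitoribosomal values was not tested.

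The large subunit, which holds the peptidyl transferase centre where peptide bonds form, had 51 members here, counting Mrps18a and Mrps30, whose proteins sit in the large subunit despite their names. Of these 43 were lower, with a median log2 fold change of -0.15. The small subunit, which binds the mRNA and decodes it, had 26, of which 22 were lower, with a median of -0.12. Mrps36 is in neither count, because its protein is now known as a component of the 2-oxoglutarate dehydrogenase complex. The array medians of the large subunit, relative to the controls' mean, were 0.06, 0.10 and -0.17 (miR-Control) and -0.21, -0.06 and -0.16 (miR-128). Those of the small subunit were 0.07, 0.08 and -0.16 (miR-Control) and -0.15, -0.07 and -0.13 (miR-128). In both subunits the first and second controls lay above the other 4 arrays.

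By origin, Mrps18a, Mrps30 and Mrps36 were not placed in a class. Mrps18b and Mrps18c, which are related to Mrps18a, were counted as having a bacterial counterpart, a choice that other schemes may make differently. The 46 members with a bacterial counterpart had 39 lower genes and a median of -0.12. The 29 members specific to mitochondria had 25 lower genes and a median of -0.15. Within the large subunit the medians were -0.12 over 29 genes with a bacterial counterpart and -0.16 over 20 genes specific to mitochondria. Within the small subunit they were -0.12 over 17 and -0.12 over 9 genes. The difference between these classes was not tested.

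Mrpl42 had the largest difference of all 78 genes. Its protein is a mitochondria-specific component of the large subunit. The log2 values were 8.39, 8.43 and 7.79 (miR-Control) and 7.27, 7.54 and 6.87 (miR-128). The groups were fully apart, and miR-Control replicate 3 was the control nearest to them. The means were 8.20 ± 0.36 (miR-Control) and 7.23 ± 0.34 (miR-128), as SD with n = 3. The difference was -0.98 (SE 0.21, 95% interval -1.46 to -0.50), equal to a 1.97-fold lower level. limma's adjusted p was 0.362. Over the settings tried it lay between 0.0573, with array weights, and 0.99971, without miR-128 replicate 1. The log2 fold change lay between -1.18 and -0.80 with 1 array left out.

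Mrps27, Mrpl35 and Mrps30 followed, with differences between -0.45 and -0.49. Mrps27, a small subunit protein of the pentatricopeptide repeat family, which bind RNA, had log2 values of 8.84, 8.77 and 8.55 (miR-Control) and 8.10, 8.31 and 8.41 (miR-128). The groups did not overlap, and the log2 fold change was -0.45 (SE 0.13, adjusted p = 0.479 in limma). Mrpl35, a large subunit protein with a bacterial counterpart, had 9.54, 9.75 and 9.26 (miR-Control) and 8.79, 9.05 and 9.23 (miR-128). Here miR-Control replicate 3 and miR-128 replicate 3 nearly met, and the log2 fold change was -0.49 (SE 0.16, adjusted p = 0.547 in limma).

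Mrps30, a large subunit protein related to Mrpl37 and once described as a cell death gene, had 9.40, 9.27 and 8.81 (miR-Control) and 8.40, 8.78 and 8.88 (miR-128). Its groups overlapped, since miR-128 replicate 3 lay above miR-Control replicate 3. The log2 fold change was -0.47 (SE 0.18, adjusted p = 0.647 in limma), and it was -0.65 without miR-Control replicate 3.

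Of the other lower genes at an unadjusted p under 0.05, 4 had small differences with separate groups: Mrps6, Mrpl36, Mrpl19 and Mrpl40. Mrps6, a small subunit protein with a bacterial counterpart, had log2 values of 10.90, 10.98 and 10.81 (miR-Control) and 10.59, 10.75 and 10.48 (miR-128), a log2 fold change of -0.29 (SE 0.11). Mrpl36, a short large subunit protein, had 9.75, 9.80 and 9.64 (miR-Control) and 9.43, 9.61 and 9.34 (miR-128), or -0.27 (SE 0.11). In both genes miR-128 replicate 2 lay just under the lowest control. Mrpl19, a large subunit protein with a bacterial counterpart, had 9.09, 9.27 and 9.04 (miR-Control) and 8.93, 8.93 and 8.72 (miR-128), or -0.27 (SE 0.12). Mrpl40, specific to mitochondria and encoded in the mouse counterpart of the human DiGeorge region, had 9.33, 9.55 and 9.39 (miR-Control) and 9.21, 9.23 and 9.07 (miR-128), or -0.25 (SE 0.11). Their adjusted p in limma ran from 0.643 for Mrps6 to 0.688 for Mrpl40, and Mrpl46 and Mrps15 also had separate groups, at -0.22 each, with an unadjusted p of 0.0696 and 0.0789.

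**Figure D3:**
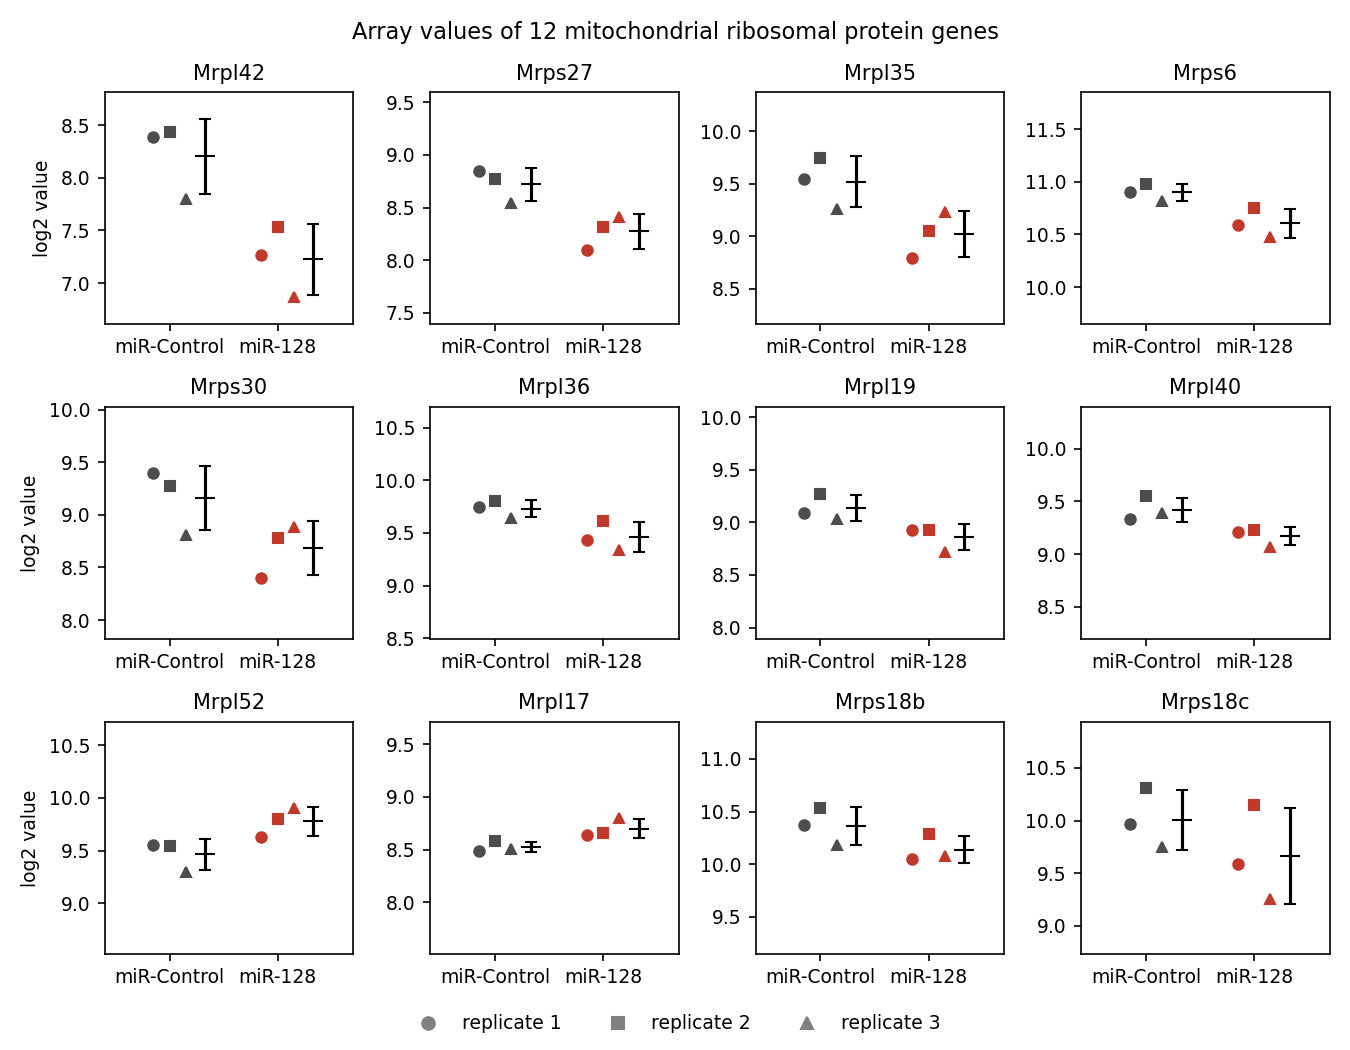
Log2 values (y axis, each panel spanning 2.2 units) of 12 mitochondrial ribosomal protein genes on the 3 miR-Control (grey) and 3 miR-128 (red) arrays, with marker shape giving the replicate and black bars the mean ± SD. In Mrpl42 the groups lie 0.98 apart, in Mrpl52 and Mrpl17 the miR-128 arrays lie above the controls, and in Mrps30, Mrps18b and Mrps18c the groups overlap.

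In all but 2 of the 12 genes with a higher mean the groups overlapped. Mrpl52, a large subunit protein specific to mitochondria, was the clearest of them, with log2 values of 9.56, 9.54 and 9.30 (miR-Control) and 9.63, 9.80 and 9.90 (miR-128). Its groups did not overlap, and its log2 fold change was 0.31 (SE 0.12, adjusted p = 0.650 in limma). Mrpl17, a bacterial-type protein near the exit of the peptide tunnel, had 8.49, 8.58 and 8.51 (miR-Control) and 8.64, 8.66 and 8.80 (miR-128), again with separate groups, at 0.17 (SE 0.10, adjusted p = 0.812 in limma).

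Among the other higher genes Mrpl23, whose protein lies at the tunnel exit, had a log2 fold change of 0.32 (SE 0.20) with overlapping groups, from 6.27 to 6.85 in the controls and 6.51 to 7.16 with miR-128. Mrpl27 was at 0.21 (SE 0.15). The mean levels of Mrpl27, Mrpl23 and Mrpl21, at 4.20, 6.70 and 6.38, lay under the median of all rows, 7.46. The only other such member, Mrps33 at 7.14, had a lower mean with miR-128. Mrps18a, Mrpl21, Mrps16 and Mrpl54 were at 0.09, 0.06, 0.04 and 0.02, and the remaining 4 higher genes lay between 0.00124 and 0.02.

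Among proteins of the functional centres, Mrps12, the decoding centre protein, was at -0.01 (95% interval -0.34 to 0.32) and Mrpl10, which anchors the stalk that recruits translation factors, at -0.00403 (95% interval -0.30 to 0.29). Mrpl12, the stalk protein that in human cells also binds the mitochondrial RNA polymerase, was at -0.08 (95% interval -0.34 to 0.18). The stalk base protein Mrpl11 was lower, at -0.29 (95% interval -0.59 to 0.000953), with 9.24, 9.18 and 8.99 (miR-Control) and 8.72, 9.06 and 8.75 (miR-128), so that only miR-128 replicate 2 lay among the controls. These intervals show that a moderate difference in any of the 4 genes would be hard to see with 3 arrays a group.

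Further members with defined roles lay between -0.27 and 0.04. Mrpl3, a core protein near the peptidyl transferase centre, was at -0.27 (SE 0.14). Mrpl45, which faces the inner membrane at the tunnel exit, was at -0.18 (SE 0.14) and Mrpl44, which has an RNase III-like fold, at -0.17 (SE 0.15). Mrpl58, a peptidyl-tRNA hydrolase that also frees stalled ribosomes, was at -0.15 (SE 0.12). Mrps22 and Mrps16, small subunit proteins whose loss causes mitochondrial disease in humans, were at -0.10 (SE 0.12) and 0.04 (SE 0.13). Mrps36 was at -0.05 (SE 0.15). In limma their adjusted p ran from 0.759 for Mrpl3 to 0.988 for Mrps16.

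The 3 paralogues related to 1 bacterial protein of the small subunit differed in value. Mrps18b had log2 values of 10.38, 10.54 and 10.18 (miR-Control) and 10.05, 10.29 and 10.08 (miR-128), a log2 fold change of -0.23 (SE 0.13). Mrps18c had 9.97, 10.31 and 9.74 (miR-Control) and 9.59, 10.15 and 9.25 (miR-128), or -0.35 (SE 0.23). Mrps18a, the paralogue found in the large subunit, had 9.64, 9.50 and 9.27 (miR-Control) and 9.34, 9.58 and 9.76 (miR-128), or 0.09 (SE 0.14). All 3 had overlapping groups, their intervals include 0, and the difference between them was not tested.

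The widest spread over arrays was seen in Mrpl42, Mrps18c, Mrps30, Mrpl35 and Mrps33. Mrps33, a small subunit protein specific to mitochondria, was one of 4 genes in which miR-Control replicate 3 was the highest array, here at 7.74, against 7.10 and 6.80 in the other controls and 6.95, 7.38 and 6.86 with miR-128. Its log2 fold change was -0.15 (SE 0.24) and it turned to 0.11 without miR-Control replicate 3.

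Most members are measured by a single row. Of the 78 genes 71 had 1 row, 7 had several and 5 had several with distinct values. In Mrps10 a further row had a log2 fold change of -0.27 (SE 0.12) with separate groups, against -0.15 (SE 0.11) with overlapping groups in the row used. In Mrpl15 the 3 rows had -0.12, -0.16 and -0.13, the last for a transcript that RefSeq lists as noncoding. In Mrpl48 the row used, also for a noncoding transcript, had -0.24, and the row of the coding transcript had -0.17. In Mrps2 the 2 rows had -0.00497 and -0.03. In Mrpl1 the 2 rows had -0.02 and 0.02. Transcripts of a gene may share probes, so these rows are not taken as independent measurements.

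The promoters of Mrpl42, Mrps27, Mrpl35 and Mrpl52 are shown because these genes had the smallest p among lower genes and the smallest among higher genes, a choice made from their values. Each window runs from 250 bases before to 50 bases after the RefSeq start (GRCm38.p6). Capitals mark matches, on either strand, to 4 motifs known from promoters of housekeeping and mitochondrial genes: CCGGAAG, bound by ETS factors such as GABP, AAGATGGC, bound by YY1, CACGTG, the E-box, and a palindrome named after NRF1, which is GCGCA followed by its reverse complement.
Mrpl42 promoter, chr10:95501900-95502199, minus strand: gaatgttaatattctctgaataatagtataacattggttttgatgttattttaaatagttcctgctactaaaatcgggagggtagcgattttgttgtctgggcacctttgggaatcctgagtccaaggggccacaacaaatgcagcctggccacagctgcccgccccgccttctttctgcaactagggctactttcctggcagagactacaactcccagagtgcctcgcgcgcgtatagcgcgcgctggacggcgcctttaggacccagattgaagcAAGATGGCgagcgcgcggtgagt
Mrps27 promoter, chr13:99344536-99344835, plus strand: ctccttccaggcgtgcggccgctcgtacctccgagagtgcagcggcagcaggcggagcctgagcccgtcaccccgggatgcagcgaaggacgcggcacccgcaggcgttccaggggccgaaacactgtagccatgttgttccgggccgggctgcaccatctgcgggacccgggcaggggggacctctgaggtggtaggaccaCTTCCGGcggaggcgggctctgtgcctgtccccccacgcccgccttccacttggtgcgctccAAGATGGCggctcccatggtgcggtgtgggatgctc
Mrpl35 promoter, chr6:71823735-71824034, minus strand: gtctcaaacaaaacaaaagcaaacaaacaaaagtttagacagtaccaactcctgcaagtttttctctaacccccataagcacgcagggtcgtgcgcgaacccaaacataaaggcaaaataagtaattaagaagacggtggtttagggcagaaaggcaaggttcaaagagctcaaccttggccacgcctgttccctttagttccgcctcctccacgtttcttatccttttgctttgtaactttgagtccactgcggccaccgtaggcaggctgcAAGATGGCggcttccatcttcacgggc
Mrpl52 promoter, chr14:54426659-54426958, plus strand: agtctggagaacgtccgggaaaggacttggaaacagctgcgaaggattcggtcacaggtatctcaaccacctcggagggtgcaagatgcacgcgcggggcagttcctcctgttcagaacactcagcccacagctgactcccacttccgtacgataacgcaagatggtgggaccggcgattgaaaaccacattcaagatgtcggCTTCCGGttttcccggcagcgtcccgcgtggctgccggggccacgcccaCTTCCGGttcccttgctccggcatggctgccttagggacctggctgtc

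Counting the start as base 1, the YY1 motif began at base 28 in Mrpl42, 24 in Mrpl35 and 15 in Mrps27, and the ETS motif began at -48 in Mrps27 and at -47 and 3 in Mrpl52. Promoter sequences were found for 69 of the 78 genes. The ETS motif was in 26 of these (37.7%), beside 9.93% of all 27025 genes with a window, and the YY1 motif in 12 (17.4%), beside 3.19%. The NRF1 motif was in 3 (4.35%), beside 1.07%, and the E-box in 5 (7.25%), beside 8.09%. No gene of the 69 had overlapping matches of different motifs, and 30 had no match. All genes here include noncoding ones, and a match is only a string of letters.

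Values were then set beside the motifs. Of the 26 genes with an ETS motif 20 were lower, with a median log2 fold change of -0.15, against 38 of the 43 without it, also at -0.15. Of the 12 genes with a YY1 motif 10 were lower, with a median of -0.12, against 48 of 57 at -0.15. Of the 5 genes with an E-box 5 were lower, with a median of -0.27, against 53 of 64 at -0.13. Of the 3 genes with an NRF1 motif 3 were lower, with a median of -0.12, against 55 of 66 at -0.15. These splits were not tested.

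Some members start near another gene on the opposite strand. Of the 69 genes with a promoter sequence, 26 had the start of one within 1000 bases upstream, at gaps of 8 to 935 bases. The share of all genes with such a neighbour was not counted, and sharing of a promoter was not tested. Among the 26 were Mrps12 with Sars2, a mitochondrial seryl-tRNA synthetase gene, and Mrpl32 with the proteasome gene Psma2. Others were Mrpl43 with the mitochondrial DNA helicase gene Twnk, Mrpl47 with the complex I gene Ndufb5, and Mrpl46 with Mrps11. Of the 24 neighbours with a row, the latter 2 genes included, 17 were lower, with a median of -0.07. Of all named genes 43.8% were lower, and of those above the median level 49%. In the pair Mrpl46 and Mrps11 the log2 fold changes were -0.22 and -0.12. At Mrps27 the neighbour Ptcd2 was at -0.09 (SE 0.17), and at Mrpl18, which was at -0.29 (SE 0.14), the chaperonin gene Tcp1 was at -0.26 (SE 0.13). The only neighbour of the 24 at an unadjusted p under 0.05 was Eme1, a DNA repair nuclease gene, at -0.33 (SE 0.12). Its partner Mrpl27 was at 0.21. Of all named genes 3.39% were lower and 3.74% higher at that p.

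Genes that build and run the mitoribosome were also mostly lower. Of the 5 subunits with other names 4 were lower, with a median of -0.07, Dap3 at -0.07 (SE 0.14) and Aurkaip1 at -0.16 (SE 0.11) among them. Of 23 measured assembly factors 18 were lower, with a median of -0.08. Mtg1, a GTPase of large subunit assembly, had the smallest p of these, with log2 values of 8.77, 8.87 and 8.59 (miR-Control) and 8.06, 8.50 and 8.32 (miR-128). Its groups did not overlap, and its log2 fold change was -0.45 (SE 0.14, adjusted p = 0.522 in limma).

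Of 14 measured translation and mRNA factors 11 were lower, with a median of -0.14. At an unadjusted p under 0.05, 2 were lower, beside 3.39% of all named genes and 5.15% of those above the median level. These 2 were Lrpprc and Slirp, whose proteins form the complex that stabilises mitochondrial mRNAs. Lrpprc had 10.45, 9.88 and 9.66 (miR-Control) and 9.07, 9.21 and 9.39 (miR-128), with separate groups and a log2 fold change of -0.78 (SE 0.19, adjusted p = 0.416 in limma). Slirp, named after its values were seen, had 9.80, 9.68 and 9.39 (miR-Control) and 9.09, 9.51 and 8.95 (miR-128), with overlapping groups and a log2 fold change of -0.44 (SE 0.17, adjusted p = 0.644 in limma).

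Import, folding and protease genes were lower in 11 of 14, with a median of -0.11. At an unadjusted p under 0.05, 2 were lower, beside 3.39% of all named genes, and 1 was higher, beside 3.74%. The 2 lower genes were Hspa9 and Afg3l2. Hspa9, at -0.50 (SE 0.19), and the higher gene, Hspe1, at 0.29 (SE 0.12), had separate groups. Hspa9 and Hspe1 were named after their values were seen. Afg3l2, a subunit of the inner membrane protease that in yeast and mouse matures Mrpl32, had 9.71, 9.62 and 9.35 (miR-Control) and 9.04, 9.14 and 9.13 (miR-128), with separate groups and a log2 fold change of -0.45 (SE 0.12, adjusted p = 0.456 in limma). Mrpl32 itself was at -0.11 (SE 0.15). Genes of mitochondrial DNA expression were lower in 5 of 9, with a median of -0.03, with the elongation factor Tefm at -0.19 (SE 0.11) and the DNA packaging factor Tfam at 0.06 (SE 0.13). The 10 nuclear regulators of mitochondrial genes had 4 lower members and a median of 0.02. Of these Esrra, an orphan nuclear receptor, was at -0.15 (SE 0.11), Nrf1, the activator named above, at -0.11 (SE 0.11) and the coactivator Ppargc1a at -0.02 (SE 0.14), with overlapping groups in all 10.

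Beside the members, the 43 complex I genes with Nduf symbols had 33 lower genes and a median of -0.10, and the 56 cytosolic ribosomal protein genes had 39 lower and a median of -0.07. At an unadjusted p under 0.05, 6 complex I genes (14.0%) and 5 cytosolic ones (8.93%) were lower and 0 of either higher. The share of lower genes was 10.3% for the members and 5.15% for genes above the median level. Without miR-Control replicate 3 the lower genes were 15 of 43, 6 of 56 and 24 of the 78, beside 11.1% above that level, and 0 were higher. The lists' array medians differed in the third control: miR-Control replicate 3 was at -0.19 for complex I, at -0.05 for cytosolic ribosomal proteins and at -0.17 for the 78 mitoribosomal genes. Without that array the medians were -0.21 for complex I, -0.09 for cytosolic ribosomal proteins and -0.21 for the mitoribosomal genes. The differences between the lists were not tested, so the lower values cannot be called particular to the mitoribosome.

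**Figure D4:**
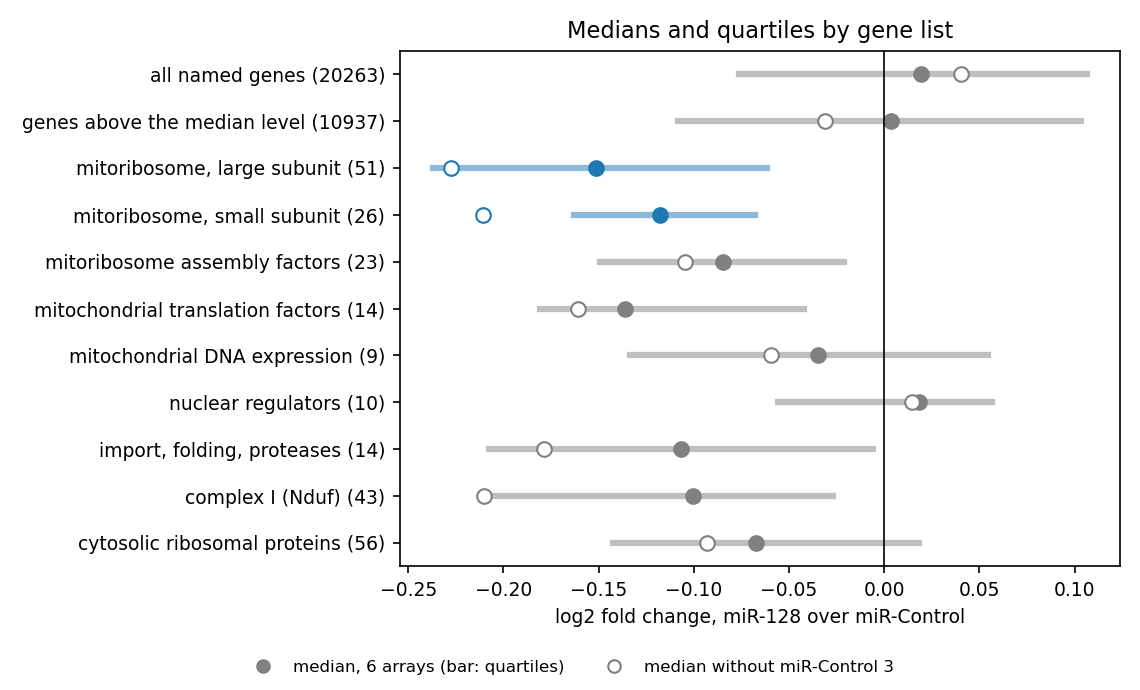
Median log2 fold change (x axis, miR-128 over miR-Control) of each gene list with all 6 arrays (filled circles, with bars from the lower to the upper quartile of genes) and without miR-Control replicate 3 (open circles), with the number of genes in brackets and the mitoribosome in blue. The large and small subunits lie at -0.15 and -0.12, against 0.02 for all named genes, and both lie lower without miR-Control replicate 3.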

How the data were processed

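Exon arrays of 6 RNAs were used, 3 per group by sample title. The authors deposited log2 values made with affy and RMA, per the submitters' processing notes, with versions, probe grouping and genome build not given in the sources used here. RMA corrects background, aligns arrays and summarises probes, and tends to shrink fold changes. Signal over background and depth are unknown, and the number of arrays limits precision. Rows are RefSeq transcripts. They were matched to RefSeq symbols (assembly GRCm38.p6, names only) without versions, 25343 of 32025 rows for 20263 genes.

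limma 3.58.1 in R 4.3.3 (lmFit, eBayes, unpaired, two-sided, no filter) was fitted across all rows, with Benjamini-Hochberg adjustment over all rows and a threshold of 0.05. It was also run on simulated rows with independent normal noise, a setting without an outlying array such as miR-Control replicate 3. ± values are SDs. The members and lists were chosen with earlier results of these data known. Gene lists were only described by counts and medians, beside the same over all named genes. Genes named are the 8 of smallest p on each side, 15 with known roles whatever their values, the 5 of widest range, the smallest p of each other list, and Tfam, Nrf1, Dap3 and Ppargc1a. Others are said to be chosen by value or serve as examples, and 1 marker gene is not reported by name here. The numbers were not taken as pairs, because no label says that a number marks a shared culture. Same-numbered arrays of the groups deviated together with correlations of -0.00278, 0.17 and 0.05 over rows. Arrays of different numbers had -0.24 to 0.19. With 3 arrays a group these values cannot settle whether the cultures were paired. Alternatives were quantile normalization, median centring, a level filter, a replicate block, other spread estimates, array weights, row averaging and leaving out each array.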

Additional observations from a re-analysis of the deposited data

How the results depend on the processing

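With 3 arrays a group, the median 95% interval reached 0.29 to each side of a single row's log2 fold change. Of the 14 alternatives, the count of separate groups was recomputed only with 1 array left out, the count over all rows was not made for row averaging, and members below the median level have no value under the level filter. In all 14, 0 of the 78 genes passed an adjusted p of 0.05. The median log2 fold change stayed below 0 for all members (-0.21 to -0.09 with 1 array left out), for the large subunit (-0.23 to -0.11) and for the small subunit (-0.21 to -0.07). With the replicate number as a block the medians kept their values and the count of lower genes at an unadjusted p under 0.05 was 11 (14.1%), beside 3.84% of all named genes and 5.66% of those above the median level. Members with lower values numbered 56 to 70 with 1 array left out, and 64 to 71 under the other settings, a count chosen after seeing the data.

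Over all rows, 4 passed when only rows above the median level were fitted (fewer rows tested) and 24 under array weights, none of them a member. Array weights gave 26 lower genes (33.3%) at an unadjusted p under 0.05, beside 7.61% of all named genes and 12.3% of those above the median level, and 0 higher, beside 6.73%. Median centring gave 0 higher, beside 2.34%. The replicate 3 control had the lowest weight, 0.279, against 0.754 to 2.12 for the others. With 1 array left out, lower genes at that p numbered 2 to 24 (2.56% to 30.8%, beside 2.43% to 11.1% of genes above the median level) and higher genes 0 to 2. Genes with separate lower groups numbered 11 to 42 (14.1% to 53.8%, beside 8.68% to 21.7%), a count chosen after seeing the data. Why these counts moved was not tested.

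Signs turned in 7 named genes, all with a main log2 fold change between -0.15 and 0.09. With 1 array left out the values ran from -0.11 to 0.0748 in Mrpl10, -0.13 to 0.0698 in Mrps12, -0.19 to 0.0848 in Mrps36, -0.0468 to 0.0663 in Mrpl54, -0.0447 to 0.12 in Mrps16, -0.0101 to 0.20 in Mrps18a and -0.36 to 0.11 in Mrps33. Mrpl10 was 0.0103 after quantile normalization, Mrpl54 was -0.0101 after median centring and Mrps18a was -0.0738 with array weights. The other 22 named genes kept their direction in every alternative in which they had a row.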
